A study of Mus musculus with 6 samples.

Results

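MiR-21a is a mouse microRNA whose hairpin yields a 5′ arm, miR-21a-5p, and a 3′ arm, miR-21a-3p. Both arms were taken by name from the deposited table, which makes 2 of its 1251 miRNA rows. The table covers 6 small RNA libraries of C57BL/6J mice, 3 from interscapular brown fat (labels BF-EPA-3, BF-EPA-4 and BF-EPA-5, here brown libraries 3, 4 and 5) and 3 from inguinal subcutaneous fat (SUB-EPA-1, SUB-EPA-3 and SUB-EPA-8, here subcutaneous libraries 1, 3 and 8). Per the titles and the series' design text, all 6 came from mice given as 5 to 6 weeks old that ate a high fat diet for 11 weeks. Fat gave 45% of its energy, carbohydrate 35% and protein 20%. The diet was supplemented with 6.75% eicosapentaenoic acid (EPA), an omega-3 fatty acid. As feeding alone took 11 weeks, the stated age is not that at tissue collection. The tissues were taken after 4 hours of fasting. With the EPA-fed groups only, the comparison was between the tissues, and a response to EPA was not analysed here.

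A microRNA arm is loaded into an Argonaute protein and pairs with target transcripts mainly through its seed, bases 2 to 8. MiR-21-5p is the arm kept in most cells, and the 3′ arm is mostly degraded. Transcription of miR-21 is driven by STAT3 and AP-1, its processing is promoted by TGF-beta and BMP signalling through Smad proteins, and its known targets include the tumour suppressor Pdcd4. In adipose tissue it is known for promoting adipogenic differentiation of stromal progenitors, and in other organs for its rise in fibrosis and inflammation.

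The sequences below are from RefSeq on GRCm38.p6 (the assembly also called mm10). They cover both arms and the near-identical paralogs miR-21c and miR-21b, which could be read as miR-21a. Each is written 5′ to 3′ with the seed in capitals.
miR-21a-5p: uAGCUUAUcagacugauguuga
miR-21a-3p: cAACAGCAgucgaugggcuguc
miR-21c: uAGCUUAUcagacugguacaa
miR-21b: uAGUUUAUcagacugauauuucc
MiR-21a-5p lies at chr11:86584120-86584141 and miR-21a-3p at chr11:86584082-86584103, both on the minus strand. In GENCODE M21 on GRCm38 the hairpin, chr11:86584067-86584158, falls inside the untranslated part of exon 12 of Vmp1, a gene of autophagosome formation that is read in the same direction. Among the 1679 mature mouse miRNAs compared, miR-21c alone shared the seed of miR-21a-5p, and none shared that of miR-21a-3p. This set was incomplete: it left out a whole chromosome, and only 85.1% of the tested miRNAs had a sequence. MiRNAs outside it may share either seed. Counted from 1 at the 5′ end of miR-21a-5p, miR-21c differs by A16G, G18A, U19C, U20A and G21A, all outside the seed. MiR-21b differs by C4U within the seed and by G18A, G21U and A22C after it. Both paralogs were listed at the floor of the table, 3.32 in log2 units (a linear value of 10), in all 6 libraries. How reads that fit several of these miRNAs were assigned is not given in the sources used here.

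MiR-21a-5p was well above the floor in every library and lower in brown than in subcutaneous fat. Its deposited log2 abundance was 10.53, 8.71 and 9.78 in brown libraries 3, 4 and 5. In subcutaneous libraries 1, 3 and 8 it was 13.18, 12.74 and 12.98. The groups did not overlap: the highest brown value lay 2.21 log2 units (4.63-fold) below the lowest subcutaneous value. Group means were 9.67 ± 0.91 (SD, n = 3) and 12.97 ± 0.22 (SD, n = 3). The difference, brown minus subcutaneous, was -3.29 ± 0.45 (SE) on the log2 scale, or 9.8-fold higher in subcutaneous fat (limma over 269 tested miRNAs, Benjamini-Hochberg adjusted p = 0.00103).

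Differences of this kind were common between these tissues. Of all tested miRNAs, 69.1% passed an adjusted p of 0.05, with 35.7% lower and 33.5% higher in brown fat. The groups did not overlap for 74%, and for 40.1% the 3 brown values lay wholly below the 3 subcutaneous ones. By size, 22 of the 269 miRNAs lay further below in brown fat than miR-21a-5p. Over the whole test the median difference came to -0.45, and miR-21a-5p lay 2.84 below it. Rescaling the libraries by the median of ratios, which shifts every miRNA alike, moved that median to -0.04 and miR-21a-5p to -2.87. In bulk tissue, fewer cells that carry a miRNA and less of it per cell cannot be told apart. Nothing in the labels says that the libraries came from separate mice, so the p-values refer only to the spread among them, which may be technical.

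**Figure D1:**
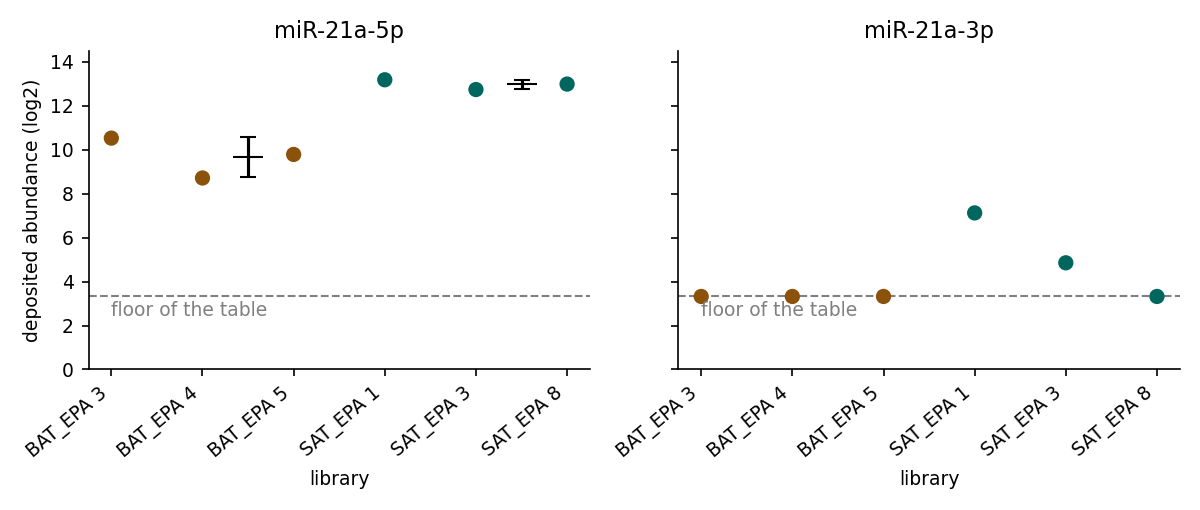
Deposited log2 abundance of miR-21a-5p (left) and miR-21a-3p (right) in each library, brown fat in brown and subcutaneous fat in green, with the mean and SD of each group for miR-21a-5p in black. The 3 brown values of miR-21a-5p run from 8.71 to 10.53 and the 3 subcutaneous values from 12.74 to 13.18, while miR-21a-3p is on the floor (dashed) in 4 libraries.

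By rank, miR-21a-5p was the 82nd, 123.5th (a tie) and 95.5th (a tie) most abundant row in brown libraries 3, 4 and 5. In subcutaneous libraries 1, 3 and 8 it was the 37th, 42nd and 39th. The mean ranks were 100.3 and 39.3, and the exact two-sided permutation test gave p = 0.1, the smallest that 3 against 3 libraries allow. Rank and value are nearly the same measurement here: over the first 130 ranks, the values that the 6 libraries held at a given rank differed by at most 0.14 log2 units. On the linear scale above the floor, miR-21a-5p took 0.0170% to 0.0609% of the table's total in brown and 0.283% to 0.385% in subcutaneous libraries. Next to it by mean rank in brown fat stood miR-99a-5p (9.61 ± 0.34 SD, n = 3) and miR-664-3p (9.54 ± 0.16), neither of which differed from it by more than its own spread of 0.91. In subcutaneous fat it shared its mean rank of 39.3 with the endothelial miR-126-3p (12.96 ± 0.11) and with miR-133a-3p of striated muscle (13.65 ± 3.10).

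**Figure D2:**
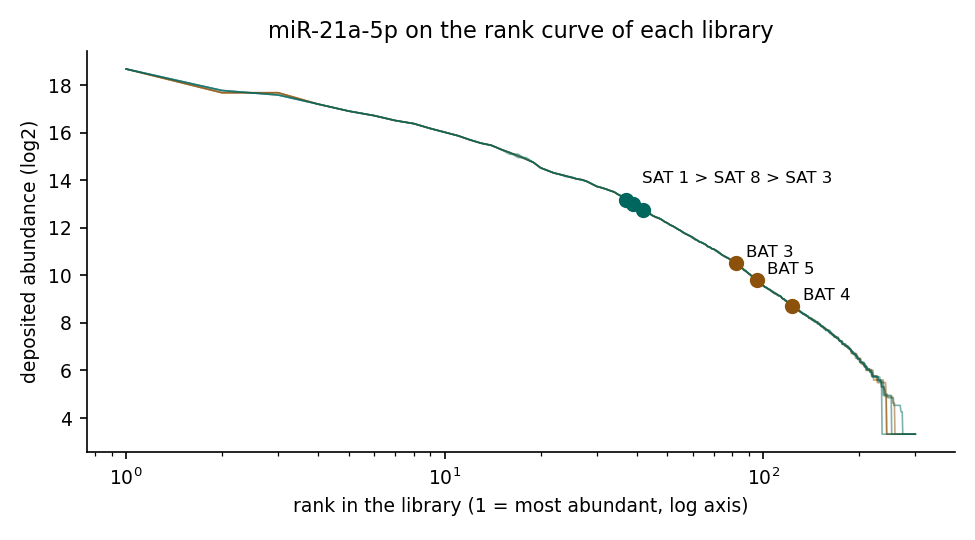
Deposited log2 abundance against rank (log axis) for the first 300 rows of each library, as lines, with miR-21a-5p marked in each library. The 6 lines lie on each other, so the place of miR-21a-5p, at ranks 37 to 42 in subcutaneous and 82 to 123.5 in brown libraries, fixes its value.

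The spread of miR-21a-5p also differed between the depots, as a description without a test. Its brown values covered a 3.52-fold range on the linear scale and its subcutaneous values a 1.36-fold range. Of 213 tested miRNAs above the floor in all 3 brown libraries, 13 had a larger SD, and the median SD was 0.27. Of the 46 with a brown mean within 1 log2 unit of its own, 2 had a larger SD. In subcutaneous fat, by contrast, 142 of 210 miRNAs had a larger SD than miR-21a-5p. Brown library 4 held the lowest value, and without it the difference was -2.81 ± 0.28 (SE, limma adjusted p = 0.00125).

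MiR-21a-3p was near the limit of the table. It was listed at the floor in all 3 brown libraries and in subcutaneous library 8. In subcutaneous library 1 it stood at 7.12 and in library 3 at 4.85 on the log2 scale, ranks 178 and 251. The groups overlapped at the floor, and the fitted difference of -1.78 ± 1.0 (SE) did not pass the threshold (limma adjusted p = 0.152). It entered the test only through those 2 libraries and was the least abundant of the 269 tested miRNAs: its mean above the floor was 24.7 linear units against a minimum of 24.0, with miR-200c-3p next outside at 23.9. Without subcutaneous library 8 the difference was -2.67 and past the threshold (limma adjusted p = 0.0383), and without subcutaneous library 1 it was -0.77 (0.253). Library 8 is the only subcutaneous library at the floor. Leaving it out sets floor values alone against the values above the floor, so that call is not read as a measurement.

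The arm ratio could be measured in 2 libraries. In subcutaneous library 1 the 5′ arm exceeded the 3′ arm by 6.06 log2 units (66.6-fold), and in library 3 by 7.88 (236-fold). Among miRNAs with both arms above the floor, 9 of 44 pairs in library 1 and 7 of 65 in library 3 had a larger ratio in either direction, and the median ratios were 3.97 and 3.83 log2 units. In subcutaneous library 8, miR-21a-5p stood 9.66 log2 units above the floor at which its partner was listed. There the ratios of libraries 1 and 3 would place miR-21a-3p at 6.93 and 5.10, both above the floor. The smallest tested value above the floor in library 8 was 4.95, so 5.10 lies close to what it could show. The deposited arm ratio thus differed between libraries 1 and 3, while that of library 8 against library 3 rests on a value near this limit. In brown libraries 3, 4 and 5 the 5′ arm stood 7.20, 5.39 and 6.46 above the floor. The ratio of subcutaneous library 1 would place miR-21a-3p at 4.47, 2.65 and 3.73 there, and that of library 3 at 0.83 to 2.64. Most of these values lie below the floor. The smallest tested values above the floor were 5.49, 5.20 and 4.91 in brown libraries 3, 4 and 5, and all the placed values lie below those. The ratio was therefore not tested between the tissues. How deeply each library was read is unknown, and values this near the floor may rest on few reads.

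The arms also differ in base composition. MiR-21a-5p begins with U and has a GC content of 36.4%, and miR-21a-3p begins with C and has 59.1%. Argonaute proteins are known to favour a 5′ U. Among 126 arm pairs with both sequences and at least 1 tested arm, the more abundant arm began with U in 71 (56.3%) and the less abundant arm in 25 (19.8%). What the first base contributed to the arm ratio of miR-21a was not tested.

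GC content ran with the tissue difference across the table. Over the 229 tested miRNAs with a sequence (85.1%), GC content and the brown minus subcutaneous difference correlated at r = 0.52, and at 0.45 over the 221 of at most 70% GC; these are descriptions across miRNAs measured in the same libraries. MiR-21a-5p is among the AU-rich ones. Of the other 15 miRNAs with as little GC or less, 11 were lower and 1 higher in brown fat, with a median difference of -1.70. Of the 213 with more GC, 71 were lower and 70 higher, with a median of -0.44. With the GC trend of each library removed, miR-21a-5p was still lower in brown fat, but by less: -1.31 ± 0.41 (SE, limma adjusted p = 0.0295), or -1.47 (0.0165) with the trend taken over miRNAs of at most 70% GC. The same step gave miR-21a-3p a difference of -2.75 (limma adjusted p = 0.0442), but its 4 values at the floor are then set by the correction alone, so that call is not read as a measurement. What GC content contributed to either difference was not tested.

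**Figure D3:**
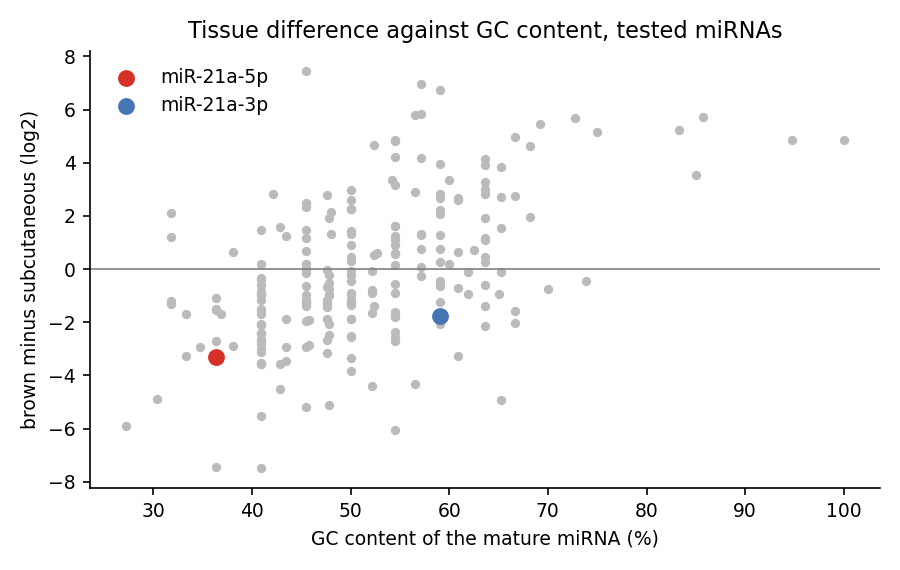
Brown minus subcutaneous difference (log2) of each of the 229 tested miRNAs with a sequence against the GC content of its mature form (percent). MiR-21a-5p sits at 36.4% GC and -3.29, on the low side of a cloud that slopes upward, and miR-21a-3p at 59.1% and -1.78.

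Most listed tissue markers went with the labels of the libraries. Of 6 tested miRNAs known from brown fat, 5 were higher in brown fat, among them miR-455-3p, where 33.5% of all tested miRNAs were higher. All 4 listed arms from Hox clusters, which carry body position, were lower, among them miR-196a-5p, against 35.7% of all tested miRNAs. MiR-615-3p, a Hox cluster miRNA outside that list, overlapped between the tissues. It was 9.76, 9.97 and 9.39 in brown libraries 3, 4 and 5. In subcutaneous libraries 1, 3 and 8 it was 9.80, 10.61 and 10.54. MiR-203-3p, counted with both the brown fat and the epithelial markers, was not called. Markers of other cell types set single libraries apart. Summed epithelial markers (7 of 7 in the table) reached 39511 linear units in subcutaneous library 1 and 267 to 411 in the other 5; miR-205-5p alone stood at 15.02 there, at 7.35 and 5.74 in the other subcutaneous libraries and at the floor in brown fat. Summed striated muscle markers (4 of 4 in the table, miR-1a-3p at the floor throughout) reached 151209 in brown library 4 and 123084 in subcutaneous library 3, against 1264 to 10308 elsewhere. Subcutaneous library 1 was the highest of its tissue in both miR-21a arms, and the muscle-rich libraries were the lowest of their tissue in miR-21a-5p. The difference of miR-21a-5p was -3.19 without subcutaneous library 1 (limma adjusted p = 0.00696) and -2.93 without the 2 muscle-rich libraries (0.00585).

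MiRNAs of the stroma, the fibroblasts and smooth muscle cells around fat cells, were counted in the same way. Of 6 tested stroma markers, 5 were lower in brown fat and 0 higher, where 35.7% of all tested miRNAs were lower. Removing the GC trend leaves out markers without a sequence. The 3 that remained, miR-199a-5p, miR-199a-3p and miR-214-3p, were then all lower. The summed level of all 6 was 25527 to 30825 linear units in brown and 90829 to 114189 in subcutaneous libraries. The largest call was miR-199b-5p, at the floor in 2 brown libraries and at 7.96 to 9.01 in subcutaneous fat. MiR-199a-3p, whose values equal those of miR-199b-3p, was 9.01, 9.33 and 8.67 in brown libraries 3, 4 and 5 and 12.69, 12.43 and 12.62 in subcutaneous libraries 1, 3 and 8. Over the 5 markers above the floor in all libraries, the mean was 10.50 in brown and 12.85 in subcutaneous fat, 2.35 log2 units apart.

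Set against that mean, miR-21a-5p was at 0.15, -2.05 and -0.58 log2 units in brown libraries 3, 4 and 5. In subcutaneous libraries 1, 3 and 8 it was at 0.33, 0.03 and 0.01. The groups then overlapped, through brown library 3, and the difference was -0.94 ± 0.52 (SE), not past the threshold (limma adjusted p = 0.151; exact two-sided permutation p = 0.3). Set against the mean of miR-16-5p, miR-103-3p and miR-191-5p, which are often used as references in fat, the groups stayed apart. MiR-21a-5p was then at -2.46, -4.37 and -3.39 in brown libraries 3, 4 and 5 and at -0.997, -1.46 and -1.28 in subcutaneous libraries 1, 3 and 8. That difference was -2.16 ± 0.47 (SE, limma adjusted p = 0.00657). These references were themselves 1.13 log2 units lower in brown fat. Both ways of relating miR-21a-5p to other miRNAs were chosen after seeing the data.

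**Figure D4:**
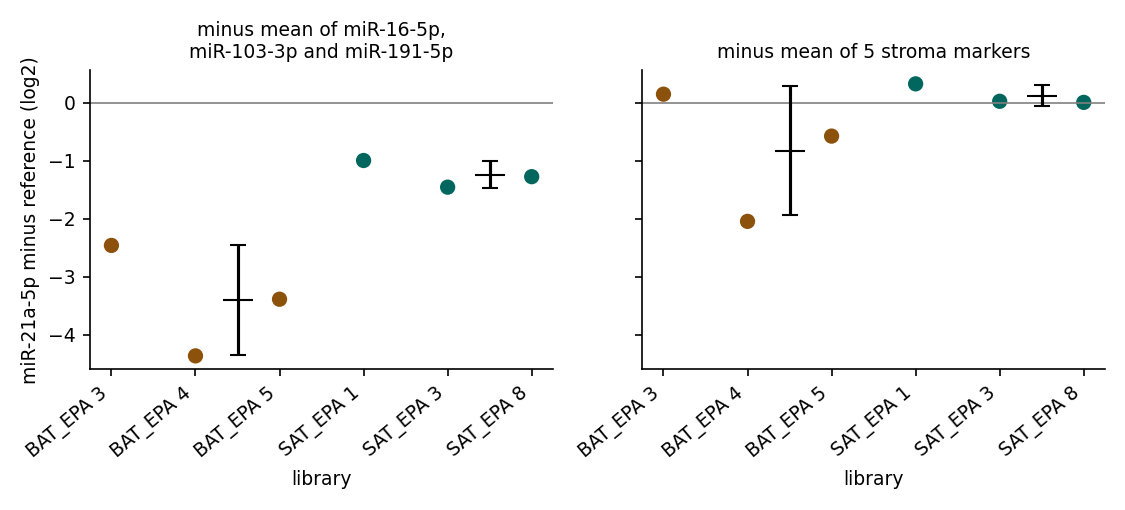
MiR-21a-5p minus the mean of 3 reference miRNAs (left) and minus the mean of 5 stroma markers (right), in log2 units, for each library, with the group mean and SD in black. Against the references the brown libraries lie at -4.37 to -2.46, all below the subcutaneous ones, and against the stroma markers brown library 3 lies among the subcutaneous libraries.

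Other cell types gave a mixed picture beside miR-21a-5p. Their counts stand beside the 35.7% lower and 33.5% higher in brown fat of all tested miRNAs. Of 4 tested leukocyte markers, 3 were lower in brown fat, led by the myeloid miR-223-3p (at the floor in brown libraries 3 and 4, 8.79 to 9.85 in subcutaneous fat), and the lymphocyte miR-150-5p was higher (1.27 ± 0.19 SE, limma adjusted p = 0.00159). The summed leukocyte level, carried by miR-150-5p, was 33362 to 45420 in brown and 15051 to 20196 in subcutaneous libraries, opposite to miR-21a-5p. Of the 6 leukocyte markers, miR-142-3p and miR-155-5p were at the floor throughout. In 2 of 20 alternatives the count of lower leukocyte markers fell to 1, and in 2 the count of higher ones fell to 0. Removing the GC trend leaves out miR-142-5p and miR-150-5p, which have no sequence. Both endothelial arms of miR-126 were lower in brown fat (summed level 3224 to 3803 against 9901 to 12592). Only 1 of the 2 was called with median-of-ratios scaling, without both libraries numbered 3 or without the 2 muscle-rich libraries, and neither has a sequence with which to remove the GC trend. The parts of leukocytes, endothelium, epithelium and muscle in the difference of miR-21a-5p were not tested.

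MiRNAs that share a known role with miR-21a-5p were counted beside the 35.7% lower and 33.5% higher of all tested miRNAs. Of 8 fibrosis-linked arms 6 were tested, 5 were lower and 0 higher in brown fat, and the median difference was -3.15. Without the 2 muscle-rich libraries 3 were lower. This list shares 4 arms with the stroma markers. MiR-34a-5p, a p53 target, was the smallest of the 5 calls (-0.92 ± 0.26 SE, limma adjusted p = 0.0183), and miR-214-3p was not called (-0.46, 0.0586). Of 7 arms induced by inflammatory signals 3 were tested, and miR-146a-5p and miR-146b-5p, feedback inhibitors of that signalling, were lower. MiR-146b-5p stood at 5.49, 6.71 and 6.56 in brown and at 10.13, 9.50 and 9.71 in subcutaneous libraries. The miR-146a-5p call (-3.10, adjusted p = 0.0242) was unstable. In 8 of 20 alternatives only 1 of the 3 arms was called lower: without brown library 3 or 4, without subcutaneous library 1 or 8, without both libraries numbered 3, with either removal of the GC trend and with a filter 10 times as strict. That filter leaves miR-146a-5p out of the test, so there its call was not lost but not made. Arms that oppose fibrosis were lower as well, 5 of 6 tested with a median of -2.17, led by miR-29c-3p. With the GC trend removed 2 of these were lower and 1 higher. Under a filter 10 times as strict 3 were lower, as that filter leaves miR-29b-3p and miR-29c-3p out of the test.

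Of 14 arms reported to promote adipogenesis, as miR-21a-5p does, 13 were tested, 6 were lower in brown fat and 5 higher, with a median of -1.38; this split is near that of all tested miRNAs. MiR-26b-5p was the furthest below, and miR-107-3p was the furthest above (1.92 ± 0.28 SE, limma adjusted p = 0.00135). Of 10 arms reported to restrain adipogenesis 7 were tested, 5 were lower and 0 higher, with a median of -1.39. MiR-138-5p led these, with all 3 brown libraries at the floor and 7.32, 8.23 and 7.41 in the subcutaneous ones.

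The 5 tested miRNAs with the profile nearest to that of miR-21a-5p over the 6 libraries were miR-193a-3p, miR-26b-5p, miR-29c-3p, miR-214-5p and let-7c-5p. Likeness was the root mean square difference of the log2 values after each miRNA was centred on its own mean, and it ran from 0.46 (miR-193a-3p) to 0.57 (let-7c-5p). Chosen in this way, they have tissue differences like that of miR-21a-5p by selection, so their folds and p-values below are descriptions only. Their sequences from RefSeq are printed to show that none has the seed of miR-21a-5p and that no 2 of them share a seed.
miR-193a-3p: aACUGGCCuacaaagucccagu
miR-26b-5p: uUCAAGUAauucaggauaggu
miR-29c-3p: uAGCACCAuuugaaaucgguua
miR-214-5p: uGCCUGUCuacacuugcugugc
let-7c-5p: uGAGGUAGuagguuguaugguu
MiR-193a-3p was 6.90, 6.45 and 7.03 in brown libraries 3, 4 and 5 and 9.93, 10.29 and 10.21 in subcutaneous libraries 1, 3 and 8. It was 10.2-fold higher in subcutaneous fat (-3.34 ± 0.25 SE, limma adjusted p = 6.98e-05). MiR-26b-5p, encoded in an intron of Ctdsp1, was 9.39, 9.23 and 9.42 in brown and 12.81, 12.25 and 12.74 in subcutaneous libraries, 9.53-fold higher there (limma adjusted p = 4.09e-05). In brown library 4 these 2 lay close to their values in the other brown libraries, unlike miR-21a-5p. MiR-29c-3p, a repressor of collagen genes, was listed at the floor in brown library 4 and stood at 5.49 and 5.60 in brown libraries 3 and 5. MiR-214-5p was at the floor in brown libraries 4 and 5. Let-7c-5p stood at 18.67, the highest value of the table, in each subcutaneous library. Pearson's r with miR-21a-5p was 0.95 to 0.96 for these 5, and 14 tested miRNAs had an r above 0.95; with 6 points in 2 groups this mostly records the tissue difference.

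**Figure D5:**
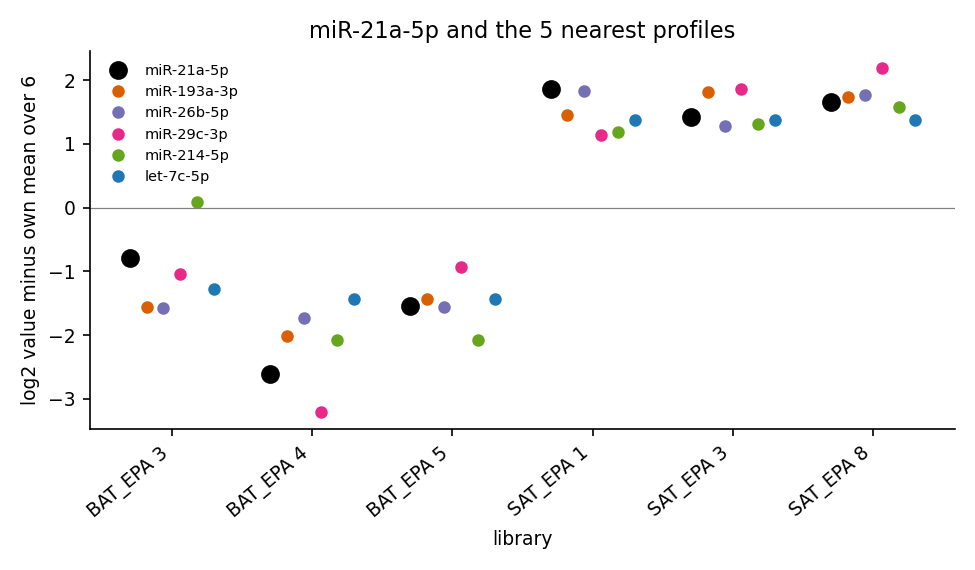
Log2 value minus its own mean over the 6 libraries for miR-21a-5p (large black points) and the 5 tested miRNAs nearest to it. All lie above their mean in the 3 subcutaneous libraries, and miR-21a-5p and miR-29c-3p lie lowest in brown library 4.

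Nearest to miR-21a-3p were miR-17-5p, miR-210-3p and the epithelial miR-429-3p, at root mean square differences of 0.69, 0.76 and 0.81. All 3 were highest in subcutaneous library 1, at 7.96, 9.97 and 8.39, and miR-429-3p was at the floor in the other 5 libraries. As miR-21a-3p is itself highest there, this follows in part from how the 3 were chosen. None of the 3 passed the threshold between the tissues (limma adjusted p = 0.139, 0.0639 and 0.320). MiR-210-3p passed it in 3 of 18 alternatives: with the GC trend removed (-2.95, adjusted p = 0.00558), without subcutaneous library 3 (-1.83, 0.0317) and with a replicate block (-1.38, 0.0493).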

How the data were processed

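Small RNA libraries were made from total RNA with an Illumina protocol, per the labels' protocols. The authors deposited log2 values for 1251 miRNAs in 6 columns; per the series' design text, reads (about 13.8 M per sample) were mapped to mm10, counts were scaled to usable reads and 40 counts were added. Which aligner and miRNA annotation served is not given in the sources used here. Values have a floor of 3.32, a linear value of 10, and how this relates to the 40 added counts is not stated. They have nearly the same distribution in each library, as quantile normalization leaves them, a step the design text does not name. The depth of each library is therefore unknown and every difference is relative.

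The log2 values were compared with limma 3.58.1 (R 4.3.3; mean-variance trend, Benjamini-Hochberg threshold 0.05) over 269 miRNAs whose mean above the floor was at least 1e-05 of the mean library total. The fit was tested on simulated data. Permutation tests used scipy 1.17.1 in Python 3.11.15. The members, lists and alternatives were chosen with earlier results of these data known. Named were both arms, miRNAs sharing a seed, nearest profiles, rank neighbours, the called list member with the largest difference in each direction, and markers. MiR-34a-5p, miR-146a-5p, miR-214-3p, miR-199a-3p, miR-205-5p, miR-615-3p and miR-29b-3p were named after their values were seen. Leukocyte miR-142 arms were matched under the name the table uses. Lists of red cell (1 of 2 tested arms higher and 1 lower in brown fat), liver (1 of 1 higher) and neuron markers (0 of 2 tested) were also counted. The shares to set beside these counts, over the whole test, are 33.5% called higher and 35.7% called lower.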

Additional observations from a re-analysis of the deposited data

How the results depend on the processing

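MiR-21a-5p was lower in brown fat under all 22 alternatives and past the threshold in 21. Its difference without any single library ran from -3.72 to -2.81. The exception was expression relative to the stroma markers, -0.94. MiR-21a-3p was not past the threshold in most settings. It passed with the GC trend removed (-2.75, or -2.90 over miRNAs of at most 70% GC), where its 4 floor values follow the correction. It also passed without subcutaneous library 8, the only subcutaneous library where it was at the floor. Neither call is read as a measurement. Without single libraries it ran from -2.67 to -0.77. Relative to the stroma markers it turned to 0.57, with 4 libraries at the floor, so that value follows the reference. A filter 10 times as strict left it out. The count of miRNAs higher in brown fat, 90, was 58 with that filter, which tests fewer miRNAs, and 58 with the GC trend of miRNAs of at most 70% GC removed. MiR-451a turned to 0.50 without the GC trend; the cause was not tested. Subtracting the floor and adding 10 restores the deposited values and so tests nothing.

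The title numbers share only the number 3 between tissues. The source names number the libraries 4 to 6 in both, and deviations of same-numbered libraries correlated at 0.04, 0.18 and 0.07. A replicate block on that number gave -3.29 ± 0.31 (SE) for miR-21a-5p and -1.78 for miR-21a-3p, with the same calls for both. The arm ratio was given no test, so its alternatives were not run.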
